A study of Homo sapiens with 17 samples.

Results

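Oncogenic RAS was turned on in human fibroblasts and the RNA of the senescent cells was set beside that of control cells. The members are the 11 libraries, of 17 in the series, that carried a non-targeting siRNA (siNT): 6 labelled as treated with 4-hydroxytamoxifen (4OHT) and 5 labelled as treated with the solvent dimethyl sulfoxide (DMSO). They were chosen by these labels, with earlier results of these data known. All were IMR90 ER:RAS cells, an established line of human lung fibroblasts that carries a RAS oncogene fused to the hormone-binding part of the oestrogen receptor, so that 4OHT activates it. Every library had been reverse transfected with siNT a day before 4OHT or DMSO, and RNA was taken 7 days after. The siNT carried a number, 2 or 4, and each replicate a tag that ended in V or VM, and the labels explain neither the number nor the letters. DMSO held 3 libraries of number 2 and 2 of number 4, and 4OHT held 3 of each. The tag was VM in all 6 libraries of 4OHT and in 3 of 5 of DMSO. The labels do not say whether replicates were separate cultures, so p-values measure the spread between these libraries. No library of 4OHT in cells without ER:RAS was analysed here, so an effect of 4OHT itself and that of RAS cannot be told apart.

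Oncogene-induced senescence is a lasting arrest that cells enter when a growth-promoting oncogene stays on. The arrest is held by cyclin-dependent kinase inhibitors, chiefly p16 and p15 of the CDKN2 locus and p21, which keep the retinoblastoma proteins active and so silence the genes of DNA replication and mitosis. Arrested cells stay alive, enlarge, lose lamin B1 from the nuclear envelope, fill with lysosomes and release a mixture of cytokines, growth factors and proteases called the senescence-associated secretory phenotype (SASP), much of it under NF-kB and C/EBP beta. Fibroblasts are known for building the extracellular matrix, chiefly from collagens, fibronectin, elastic fibres and small proteoglycans.

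The promoters of 4 genes at the ends of these programmes are shown first, because the SASP and the cell cycle genes are main subjects of the results below. Each runs 5′ to 3′ on the + strand from 250 bases before to 50 bases after the start site in RefSeq (GRCh38.p14). Capitals in the 2 SASP promoters mark the NF-kB letters GGANTTTCC and the AP-1 letters TGANTCA. Capitals in the 2 mitotic promoters mark the CHR letters TTTGAA, an element of genes that peak in G2 and mitosis, and the letters CCAAT bound by NF-Y.
CXCL8, chr4:73740319-73740618: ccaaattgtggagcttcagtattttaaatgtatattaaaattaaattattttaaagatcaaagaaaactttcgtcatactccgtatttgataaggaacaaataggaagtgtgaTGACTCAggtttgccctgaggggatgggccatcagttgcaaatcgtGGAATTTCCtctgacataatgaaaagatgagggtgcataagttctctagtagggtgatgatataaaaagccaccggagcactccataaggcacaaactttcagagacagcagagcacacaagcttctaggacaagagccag
IL6, chr7:22726950-22727249: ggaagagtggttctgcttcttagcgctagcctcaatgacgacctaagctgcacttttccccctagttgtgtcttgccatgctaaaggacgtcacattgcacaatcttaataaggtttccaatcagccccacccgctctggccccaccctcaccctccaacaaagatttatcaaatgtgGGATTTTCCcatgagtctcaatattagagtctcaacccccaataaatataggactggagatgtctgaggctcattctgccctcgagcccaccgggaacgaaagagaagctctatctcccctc
CCNB2, chr15:59104896-59105195: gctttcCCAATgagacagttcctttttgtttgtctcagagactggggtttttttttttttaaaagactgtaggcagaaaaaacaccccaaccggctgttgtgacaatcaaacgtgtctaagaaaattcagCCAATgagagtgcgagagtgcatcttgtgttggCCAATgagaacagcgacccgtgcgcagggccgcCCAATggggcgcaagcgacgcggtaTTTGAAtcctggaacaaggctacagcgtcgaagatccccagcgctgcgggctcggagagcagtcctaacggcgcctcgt
CDK1, chr10:60778081-60778380: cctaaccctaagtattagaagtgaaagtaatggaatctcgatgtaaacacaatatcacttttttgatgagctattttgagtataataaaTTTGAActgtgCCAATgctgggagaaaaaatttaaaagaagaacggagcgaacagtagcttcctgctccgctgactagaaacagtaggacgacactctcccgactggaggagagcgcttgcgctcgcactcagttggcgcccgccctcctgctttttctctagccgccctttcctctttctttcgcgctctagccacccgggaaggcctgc
The CXCL8 promoter held the NF-kB letters 91 to 83 bases before its start and the AP-1 letters 137 to 131 bases before it, and IL6 held the NF-kB letters 72 to 64 bases before its start. CCNB2 held CHR letters 29 to 24 bases before its start with 4 CCAAT boxes upstream, and CDK1 held CHR letters 161 to 156 bases before its start beside 1 CCAAT box. Such letters, searched on both strands, stood in 1.64% (NF-kB), 7.76% (AP-1), 15.4% (CHR) and 35.7% (CCAAT) of all 27305 promoters in the table. Of the SASP genes listed, 25 of 30 had a promoter there, and 28% of these held the NF-kB letters and 20% the AP-1 letters. Of 35 mitotic genes, 30 had a promoter, and 66.7% held CHR and 73.3% CCAAT. Of 35 genes of DNA replication, 31 had a promoter, and 32.3% held the E2F letters GGCGGGAA, against 3.18% of all promoters. CCAAT was not particular to mitosis, and stood in 56% of the SASP and 58.1% of the replication promoters. Among promoters of the genes tested, 10% held CHR, 36.2% CCAAT and 4.83% the E2F letters. These shares describe the letters in a window and were not tested.

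Library totals of the 11 members ran from 39.1 to 59.7 M counts, so a gene at 1 CPM (a count per 1e6 counts of the library) rested on 39.1 to 59.7 counts. In such bulk RNA, fewer cells of a type and less RNA per cell cannot be told apart, and every level is relative to the library's total. Levels below are CPM scaled by edgeR's TMM factors, which ran from 0.949 to 1.08, except where said otherwise. The sign ± gives the SD over libraries except where marked SE. SE is an approximate standard error of a log2 change, taken as its absolute value over the square root of the test's F statistic. Changes are log2 fold changes of 4OHT against DMSO from edgeR's quasi-likelihood model, and a gene is called where its p, adjusted by Benjamini-Hochberg over all genes tested, was under 0.05. Library 4-2VM of 4OHT was the highest of its group in IL1B, CXCL1, CXCL3, CSF2, IL6, BMP2 and PTGS2, and leaving it out kept the call of each. DMSO library 4-3VM lay low for FN1 and TNC and high for TMSB10, and DMSO library 2-2VM high for ACTA2 and ELN.

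The 3 genes that mark the senescent state were examined first. IL1B (ENSG00000125538; GRCh38 2:112829751-112836816), a cytokine that drives the rest of the SASP, was at 1.34, 0.318, 0.624, 0.871 and 0.721 CPM in the 5 DMSO libraries, and its lowest, median and highest values in 4OHT were 694, 869 and 1269.8 CPM. CXCL8 (ENSG00000169429; 4:73740519-73743716), the neutrophil chemokine IL-8, was at 5.48, 3.82, 2.705, 3.68 and 4.86 CPM in DMSO and at 1129.99, 1484 and 2137 CPM (lowest, median, highest) in 4OHT. CDKN2B (9:22002903-22009305), which encodes the cyclin-dependent kinase inhibitor p15, was at 22.4, 19.4, 17.04, 24.9 and 25.8 CPM in DMSO and at 318, 351 and 388 CPM in 4OHT. In each of the 3, every 4OHT library lay above every DMSO library. IL1B rose 1143-fold (log2 10.14 ± 0.48 SE, adjusted p by edgeR 3.82e-12), CXCL8 376-fold (8.55 ± 0.28 SE, adjusted p by edgeR 4.83e-14) and CDKN2B 16.1-fold (4.01 ± 0.11 SE, adjusted p by edgeR 6.00e-15).

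HRAS and ESR1, the genes whose sequences an ER:RAS fusion can share, were both higher in 4OHT. HRAS (11:532242-537321) was at 1921, 1789, 1739, 2073 and 2414 CPM in DMSO and at 3364, 3925 and 4766 CPM in 4OHT (1.00 ± 0.13 SE, adjusted p by edgeR 2.40e-06). ESR1, the oestrogen receptor gene, rose from 345 ± 43.1 to 756 ± 151 CPM (1.13 ± 0.13 SE, adjusted p by edgeR 5.84e-07). In both, the 3 number 4 libraries of 4OHT lay above the 3 of number 2, with HRAS means of 4525 and 3402 CPM. HRAS split the same way in DMSO, where the number 4 libraries were those at 2073 and 2414 CPM. Its 4OHT effect differed between numbers by log2 0.10 ± 0.12 SE (adjusted p by edgeR 0.624), and that of ESR1 by 0.53 ± 0.17 SE (adjusted p by edgeR 0.0876). NRAS, another RAS gene, fell from 86.2 ± 3.65 to 52.8 ± 5.78 CPM (-0.71 ± 0.09 SE, adjusted p by edgeR 2.79e-06). The counts cannot separate the construct from the cells' own HRAS and ESR1. Of 12 oestrogen receptor targets tested, 5 were higher (41.7%) and 3 lower (25%), against 27.0% and 27.4% of all genes tested. Their median log2 fold change was 0.026, and -0.17 within siNT number 4.

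Across the transcriptome, 10600 of 19473 genes tested were called, which is 54.4%. Of these, 5256 were higher in 4OHT (27.0% of all tested) and 5344 lower (27.4%), and the median log2 fold change of all genes was 0.0039. Libraries of the 2 groups did not overlap in 39.6% of all genes, and 7616 called genes were among them. Changes past a log2 of 1 were found in 1828 called genes that rose and 2254 that fell, and past a log2 of 5 in 129 and 50. Protein-coding genes split into 4169 higher and 4440 lower of 14193 tested, and long non-coding genes into 746 and 682 of 3761. Within libraries tagged VM, 3 of DMSO and 6 of 4OHT, 9928 genes were called. Shares of a gene list are read against these percentages.

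**Figure D1:**
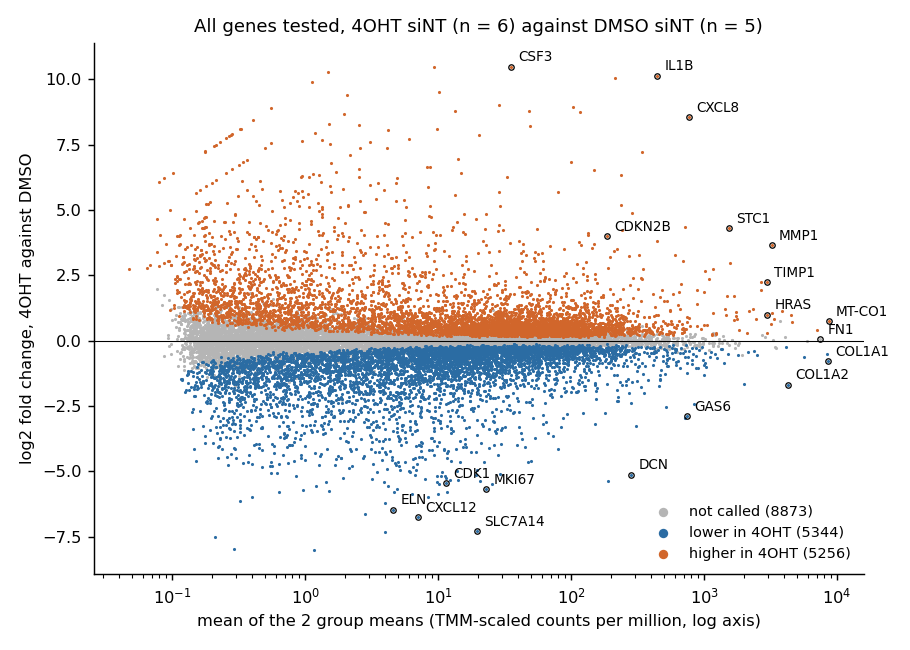
Each point is 1 gene, placed by the mean of its 2 group means in TMM-scaled CPM (x, log axis) and its log2 fold change, 4OHT (n = 6) against DMSO (n = 5) (y). Orange genes were called higher, blue lower and grey not called. Cytokines such as CSF3 and IL1B lie past a log2 of 10 at the top, and SLC7A14, CXCL12 and ELN lie under -6 at the foot.

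The 15 largest rises among called genes with no overlap and at least 10 CPM in 4OHT were CSF3, CCL20, IL1B, TNFSF15, LCE1F, IL1A, CXCL1, CST1, CST4, CXCL5, CXCL8, CXCL3, MMP10, CSF2 and FER1L6, with log2 fold changes from 10.48 to 7.73. Of these, 10 encode secreted cytokines or chemokines. CSF3, the granulocyte growth factor G-CSF, was at 0.1396, 0, 0, 0.0774 and 0.0168 CPM in DMSO and at 35.9, 62.6 and 124 CPM in 4OHT (10.48 ± 0.63 SE, adjusted p by edgeR 8.85e-11). CCL20, a chemokine for T and dendritic cells, had 3 counts over the 5 DMSO libraries and 5698 over the 6 of 4OHT, a ratio of 1750.25 with a 95% counting interval of 599 to 8490 that covers counting error only. TNFSF15, a TNF family cytokine, rose from 0.405 ± 0.518 to 429.9 ± 86.2 CPM (10.03 ± 0.58 SE, adjusted p by edgeR 5.00e-11). Without DMSO library 2-1V, which held the highest DMSO values of both, the log2 fold changes of CSF3 and TNFSF15 were 11.42 and 11.22. LCE1F is a gene of the skin's cornified envelope, and rose from 0.0261 ± 0.0172 to 20.2 ± 2.36 CPM (9.51 ± 0.77 SE, adjusted p by edgeR 5.33e-09). CST1 and CST4, which encode salivary cystatins, rose from 0.211 ± 0.114 to 96.6 ± 22.5 CPM (8.79) and from 0.0567 ± 0.0282 to 26.5 ± 4.46 CPM (8.79). They are close relatives and share reads that the counting splits by estimate, as are CXCL1 and CXCL3.

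Risers lay side by side on the chromosomes. Between CXCL8 and CXCL3 (4:73740519-74038807) 6 genes were tested and 6 were called higher, among them CXCL6 (0.0931 to 6.01 CPM, log2 5.97). Between MMP10 and MMP3 (11:102770502-102843609) 4 of 4 were higher, and at IL1A and IL1B (2:112773925-112836816) 3 of 3. Each stretch was drawn around genes chosen for rising, so these counts are a description. In all, 19 genes went from under 0.5 CPM in every DMSO library to at least 5 CPM in every 4OHT library, of which 16 were protein-coding and 3 long non-coding, and 17 did the reverse, all of them protein-coding. Besides genes named above, the first group held COL10A1, the collagen of hypertrophic cartilage (0.274 to 16.5 CPM), and DCSTAMP, a cell fusion protein of osteoclasts (0.141 to 9.49 CPM), and the second held CRYAB, a small heat-shock protein (9.06 to 0.159 CPM). These names were chosen after their values were seen.

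The SASP list of 30 cytokines and growth factors had 29 members tested, since TNF did not pass the filter on low counts. Of the 29, 28 were higher and 0 lower, against 27.0% of all genes higher, with a median log2 fold change of 4.98 beside 0.0039 over all genes. Their summed level rose from 692 ± 75.3 to 8372 ± 1226 CPM, and ran 589.8 to 784 CPM in DMSO and 7264 to 10688 CPM in 4OHT. Among interleukins, IL1A, the membrane-bound partner of IL1B, rose from 0.106 ± 0.0648 to 57.5 ± 10.2 CPM (9.02 ± 0.33 SE, adjusted p by edgeR 1.96e-13). IL6, a cytokine of fever and the acute phase, was at 7.45, 5.35, 4.91, 3.29 and 2.99 CPM in DMSO and at 39.9, 49.4 and 79.96 CPM in 4OHT (3.44 ± 0.28 SE, adjusted p by edgeR 5.46e-09). Its 10.9-fold rise was smaller than those of IL1A and IL1B, and was log2 2.95 within siNT number 2 and 4.15 within number 4. IL11 and LIF, of the same cytokine family, rose by log2 2.48 and 2.39. Among growth factors, AREG and EREG, ligands of the EGF receptor, rose from 3.19 ± 1.49 to 295 ± 35.9 CPM and from 20.9 ± 2.17 to 274 ± 42.6 CPM (log2 6.52 and 3.71), BMP2 from 5.77 ± 1.16 to 467 ± 63.04 CPM (6.34), and GDF15, a stress-induced relative of TGF-beta, from 65.96 ± 15.3 to 1360.2 ± 119.8 CPM (4.37). VEGFA, the main angiogenic factor, and FGF2, a fibroblast mitogen, rose from 56.4 ± 4.91 to 258 ± 49.7 CPM (2.19) and from 86.4 ± 17.1 to 156 ± 13.2 CPM (0.85). HBEGF rose from 37.99 ± 10.8 to 55.4 ± 6.39 CPM (0.54 ± 0.19 SE, adjusted p by edgeR 0.0241), but its libraries overlapped, and the call was lost in 4 of 13 alternative analyses and in 4 of 11 that left out a library. CCL2, a monocyte chemokine, was at 36.5, 26.1, 19.4, 18.7 and 19.8 CPM in DMSO and at 22.4, 23.9 and 27.1 CPM in 4OHT (0.02 ± 0.30 SE, adjusted p by edgeR 0.967), so the groups overlapped. CCL2 was called higher when libraries tagged VM alone were compared (log2 0.31, adjusted p by edgeR 0.0117), with V or VM as a covariate (0.52, adjusted p by edgeR 0.00587) and with the full label as a block (0.40, adjusted p by edgeR 0.0116).

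CXCL12, a chemokine of stromal cells, moved opposite to the CXCL genes of the SASP. It was at 11.5, 13.2, 13.9, 14.8 and 16.3 CPM in DMSO and at 0.0757, 0.1203 and 0.183 CPM in 4OHT (-6.75 ± 0.26 SE, adjusted p by edgeR 2.49e-13), the second largest fall by the same rule.

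Of 20 NF-kB subunits and targets, 16 were higher, 1 lower and 3 not called, with a median of 1.41. ICAM1, an adhesion receptor for leukocytes, rose from 18.7 ± 12.6 to 551 ± 153 CPM (4.88 ± 0.42 SE, adjusted p by edgeR 1.13e-08). The inhibitors that NF-kB turns on against itself also rose, TNFAIP3 from 7.36 ± 2.64 to 40.8 ± 3.85 CPM (2.47) and NFKBIA from 32.02 ± 7.06 to 107 ± 11.9 CPM (1.74), as did the subunit RELB (14.1 to 43.8 CPM, log2 1.63). VCAM1, a second leukocyte receptor, fell: its DMSO libraries were at 23.97, 9.25, 2.31, 6.64 and 2.52 CPM and those of 4OHT at 0.786, 1.19 and 1.69 CPM (-2.90 ± 0.49 SE, adjusted p by edgeR 5.26e-05). Its log2 fold change without DMSO library 2-1V was -2.13. Among AP-1 and C/EBP factors, 7 of 14 were higher and 3 lower. CEBPB, the C/EBP of the SASP, rose from 128 ± 22.5 to 302 ± 14.8 CPM (1.24 ± 0.11 SE, adjusted p by edgeR 2.44e-08), and JUNB and JUN by log2 1.14 and 0.92, while the FOS partners FOSL2 (77.6 to 32.3 CPM, log2 -1.26) and FOSL1 (157 to 93.3 CPM, -0.75) fell.

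Of 27 interferon response genes tested, 3 were higher (11.1%), 12 lower (44.4%) and 12 not called, with a median of -0.14. Among all genes tested, 27.0% were higher and 27.4% lower. The list's summed level was 449 ± 65.6 CPM in DMSO and 432 ± 11.2 CPM in 4OHT, and libraries of the groups overlapped. IFIT2 fell from 9.48 ± 2.49 to 0.651 ± 0.206 CPM (-3.85 ± 0.24 SE, adjusted p by edgeR 1.21e-10) and IFIT1, which like it binds viral RNA, from 6.54 ± 2.98 to 0.656 ± 0.206 CPM (-3.31). IRF1, an interferon-induced factor that NF-kB also turns on, rose from 23.5 ± 4.09 to 49.8 ± 3.31 CPM (1.09 ± 0.09 SE, adjusted p by edgeR 1.36e-08). Of 16 complement genes, 2 were higher and 9 lower. C3, the central component, rose from 0.339 ± 0.173 to 29.3 ± 4.36 CPM (6.42 ± 0.24 SE, adjusted p by edgeR 2.48e-13), whereas C1R, a protease that starts the classical pathway, fell from 59.5 ± 30.1 to 9.37 ± 1.499 CPM (-2.66 ± 0.26 SE, adjusted p by edgeR 5.48e-08). In the prostaglandin list, 6 of 15 were higher and 5 lower. PTGS2, the inducible cyclooxygenase COX-2, rose from 1.75 ± 0.596 to 199 ± 46.1 CPM (6.82 ± 0.24 SE, adjusted p by edgeR 1.12e-13), and PTGER2, a receptor of prostaglandin E2, fell from 50.5 ± 7.12 to 4.83 ± 0.584 CPM (-3.39 ± 0.15 SE, adjusted p by edgeR 2.25e-12).

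Genes of the matrix protease system were mostly higher. The matrix metalloproteinase and plasminogen list is not of proteases alone and also counts the inhibitor TIMP1. Of its 19 genes tested, 14 were higher and 3 lower. The list's summed level rose from 8447 ± 1074 to 25972 ± 1309 CPM, of which TIMP1 made up 1033 ± 279 and 4891 ± 1048 CPM. MMP1 (11:102789401-102798160), the interstitial collagenase, was at 318, 364, 562, 512 and 622 CPM in DMSO and at 5135, 6028 and 6655 CPM in 4OHT, a 12.5-fold rise (3.65 ± 0.16 SE, adjusted p by edgeR 1.42e-12) and the largest gain in CPM of any called gene without overlap. All 6 libraries of 4OHT were above the 5 of DMSO. MMP3, stromelysin, rose from 4.55 ± 1.91 to 673 ± 43.2 CPM (7.20 ± 0.29 SE, adjusted p by edgeR 4.89e-13), and MMP14, a membrane-bound activator of other metalloproteinases, from 790.4 ± 159 to 2580.1 ± 273 CPM (1.71). The plasminogen activators PLAU and PLAT rose from 929 ± 72.9 to 4408 ± 193 CPM (2.25) and from 356 ± 57.2 to 2795 ± 223 CPM (2.97), and SERPINB2, an inhibitor of PLAU, from 38.4 ± 15.3 to 355 ± 33.4 CPM (3.21).

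The tissue inhibitors of metalloproteinases diverged. TIMP1 (X:47582408-47586789) was at 931, 764, 917, 1056 and 1497 CPM in DMSO and at 3557, 4862 and 5984 CPM in 4OHT (2.24 ± 0.24 SE, adjusted p by edgeR 1.98e-07), with number 4 libraries of 4OHT at a mean of 5809 CPM and number 2 at 3973 CPM. In DMSO too, the number 4 libraries were the highest for TIMP1, at 1056 and 1497 CPM. The 4OHT effect on TIMP1 differed between numbers by log2 -0.012 ± 0.20 SE (adjusted p by edgeR 0.977). TIMP2 fell from 1332 ± 137 to 867 ± 36.2 CPM (-0.62) and TIMP3 from 248 ± 34.4 to 138 ± 14.7 CPM (-0.84).

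Cyclin-dependent kinase inhibitors did not move together: of 7, 3 rose, 3 fell and 1 was not called. Beside CDKN2B, CDKN2A, the gene of p16 and ARF, rose from 48.96 ± 16.4 to 115 ± 7.91 CPM (1.23 ± 0.16 SE, adjusted p by edgeR 3.35e-06) and CDKN1A, the gene of p21, from 856 ± 71.3 to 2011 ± 93.6 CPM (1.23 ± 0.08 SE, adjusted p by edgeR 1.65e-10). CDKN2C, the gene of p18, fell from 9.605 ± 1.44 to 0.723 ± 0.253 CPM (-3.74 ± 0.25 SE, adjusted p by edgeR 5.16e-10), and CDKN1B and CDKN1C, the genes of p27 and p57, fell by 1.11 and 1.25 on the log2 scale. Per kb of exon, CDKN1A had the highest level of the 7 in both groups. Of 24 p53 targets, the list that holds CDKN1A, 13 were higher, 2 lower and 9 not called, with a median of 0.29. GDF15, CDKN1A and PLK3 (39.7 to 142 CPM, log2 1.84) rose most.

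Genes of cell division were lower throughout. All 35 genes listed for DNA replication and S phase were called lower, with a median of -1.75, as were all 35 of mitosis and cytokinesis, with a median of -4.25, against 27.4% of all genes lower. The summed level of the mitotic list fell from 1068 ± 187 to 123 ± 7.83 CPM, with libraries at 882 to 1342 CPM in DMSO and 109 to 129 CPM in 4OHT, and that of the replication list from 1018 ± 103 to 404 ± 6.99 CPM. MKI67, the gene of the proliferation marker Ki-67, was at 48.1, 73.7, 35.9, 46.8 and 21.2 CPM in DMSO and at 0.654, 0.761 and 1.28 CPM in 4OHT (-5.68 ± 0.32 SE, adjusted p by edgeR 3.98e-11). CDK1, the kinase that starts mitosis, was at 20.5, 23.4, 18.8, 22.3 and 26.1 CPM in DMSO and at 0.176, 0.516 and 0.729 CPM in 4OHT (-5.44 ± 0.33 SE, adjusted p by edgeR 8.95e-11). CCNB2, a cyclin partner of CDK1, fell from 20.9 ± 3.83 to 1.17 ± 0.288 CPM (-4.15), its relative CCNB1 from 57.7 ± 8.54 to 10.5 ± 0.692 CPM (-2.46), TOP2A, the topoisomerase of mitotic chromosomes, from 95.4 ± 15.1 to 3.94 ± 0.675 CPM (-4.60), and NDC80, a kinetochore subunit, from 12.4 ± 2.604 to 0.213 ± 0.111 CPM (-5.85). In replication, PCNA, the sliding clamp, fell from 96.5 ± 11.96 to 61.9 ± 11.2 CPM (-0.64). TK1, thymidine kinase, fell from 39.97 ± 6.26 to 0.986 ± 0.232 CPM (-5.35), RRM2, a subunit of ribonucleotide reductase, from 73.8 ± 13.1 to 4.7 ± 0.714 CPM (-3.97), and MCM10, an origin factor, from 7.94 ± 1.68 to 0.262 ± 0.0919 CPM (-4.91). The smallest falls were those of ECT2 (39.1 to 30.4 CPM, -0.36 ± 0.08 SE, adjusted p by edgeR 0.000802) and DNMT1 (101 to 84.7 CPM, -0.26 ± 0.09 SE, adjusted p by edgeR 0.0220). DNMT1 overlapped between groups and was not called within siNT number 4 (log2 -0.10). Neither gene was called with the full label as a block (-0.31 for ECT2 and -0.21 for DNMT1).

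**Figure D2:**
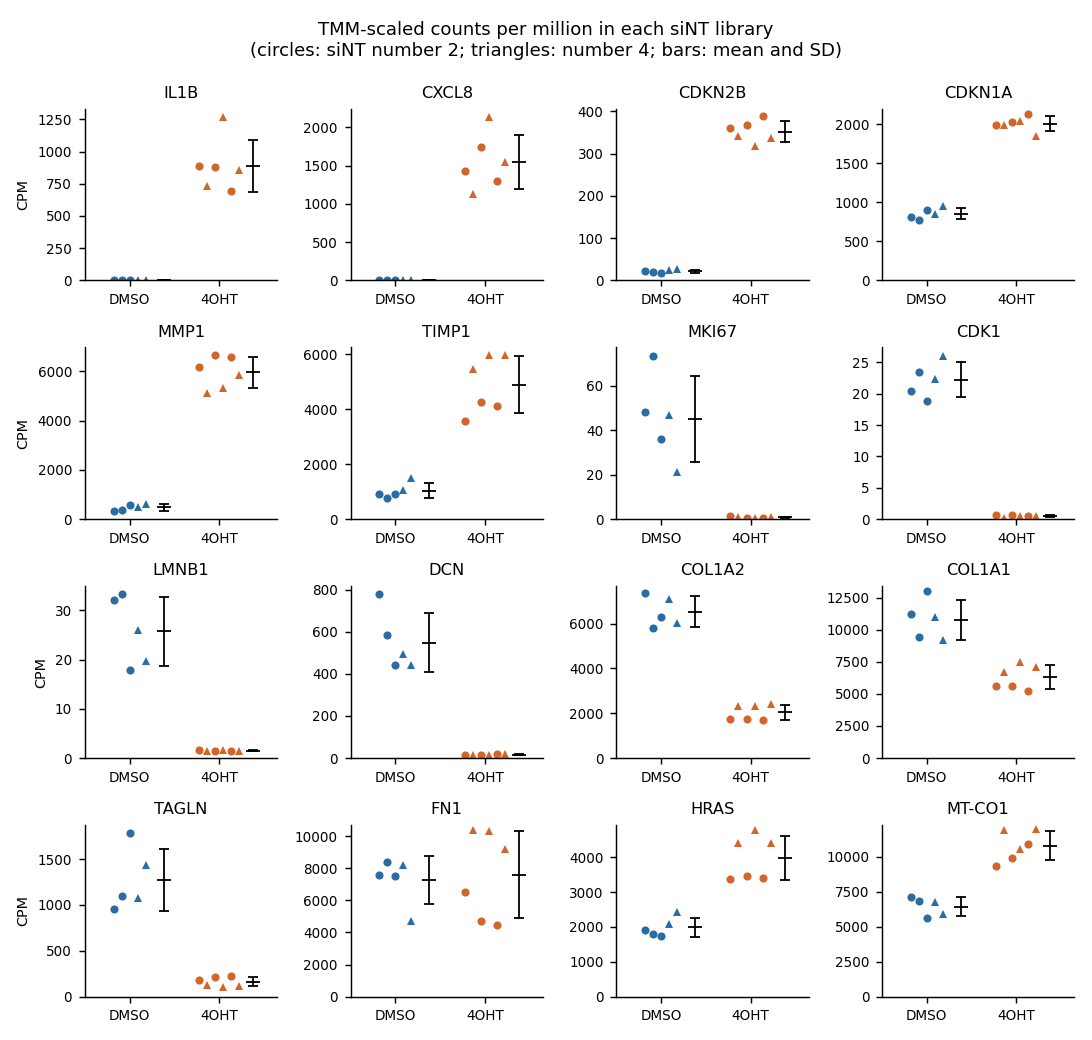
TMM-scaled CPM (y, from 0) of 16 genes in each of the 5 DMSO (blue) and 6 4OHT (orange) libraries, with circles for siNT number 2, triangles for number 4 and a bar for mean and SD. IL1B, CXCL8, MKI67, CDK1, LMNB1 and DCN are near 0 in one of the groups, whereas FN1 overlaps and splits by siNT number within 4OHT.

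Of 16 genes of the nuclear envelope and chromatin, 11 were lower and 3 higher. LMNB1 (5:126776623-126837020), the gene of lamin B1, was at 32.1, 33.3, 17.9, 25.9 and 19.7 CPM in DMSO and at 1.36, 1.41 and 1.63 CPM in 4OHT (-4.14 ± 0.18 SE, adjusted p by edgeR 1.25e-12). HMGB2, a chromatin protein of dividing cells, fell from 48.9 ± 9.17 to 4.45 ± 0.9299 CPM (-3.46), EZH2, the methyltransferase of Polycomb, from 13.2 ± 1.901 to 5.02 ± 0.316 CPM (-1.40) and LMNA from 1169 ± 205 to 574 ± 32.05 CPM (-1.03). HMGA2 and MACROH2A1, which are known from senescent chromatin, were among the 3 that rose, by log2 0.39 and 0.41. Neither was called within siNT number 4 alone (log2 0.14 and 0.27), and HMGA2 was not called in libraries tagged VM (0.14) or with the full label as a block (0.20).

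Feedback genes of the RAS and MAPK pathway were mostly higher, 15 of 24, with 2 lower and 7 not called. The MAPK phosphatases DUSP4 and DUSP6 rose from 5.38 ± 0.856 to 74.9 ± 15.5 CPM (3.80 ± 0.27 SE, adjusted p by edgeR 1.18e-09) and from 103 ± 10.5 to 449 ± 29.2 CPM (2.12 ± 0.15 SE, adjusted p by edgeR 1.16e-09), and SPRY4, an inhibitor of receptor signalling, from 60.04 ± 15.2 to 223 ± 32.9 CPM (1.89). IER3, an early gene of ERK signalling, rose from 114 ± 21.1 to 1098 ± 179.7 CPM (3.27), and ETV4, an ETS factor downstream of ERK, from 15.2 ± 0.9195 to 49.6 ± 4.6 CPM (1.71). PHLDA1, a target of the same pathway, rose from 397 ± 67.9 to 921 ± 71.1 CPM (1.21). DUSP10, a phosphatase of p38 and JNK, fell from 66.3 ± 7.104 to 27.7 ± 2.79 CPM (-1.26). CCND1, cyclin D1, was at 2494 ± 292 CPM in DMSO and 2935 ± 129.9 CPM in 4OHT (0.23 ± 0.11 SE, adjusted p by edgeR 0.0841). It was called higher when the 11 libraries were fitted alone (log2 0.24, adjusted p by edgeR 0.0203) and without DMSO library 2-2VM (0.28, adjusted p by edgeR 0.0467).

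Of 14 genes of the BCL2 family, which governs apoptosis, 8 rose and 1 fell. The survival genes MCL1 and BCL2A1, the second an NF-kB target, rose from 264 ± 19.8 to 910.3 ± 71.99 CPM (1.79 ± 0.08 SE, adjusted p by edgeR 3.00e-12) and from 0.166 ± 0.0868 to 17.05 ± 2.18 CPM (6.64).

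**Figure D3:**
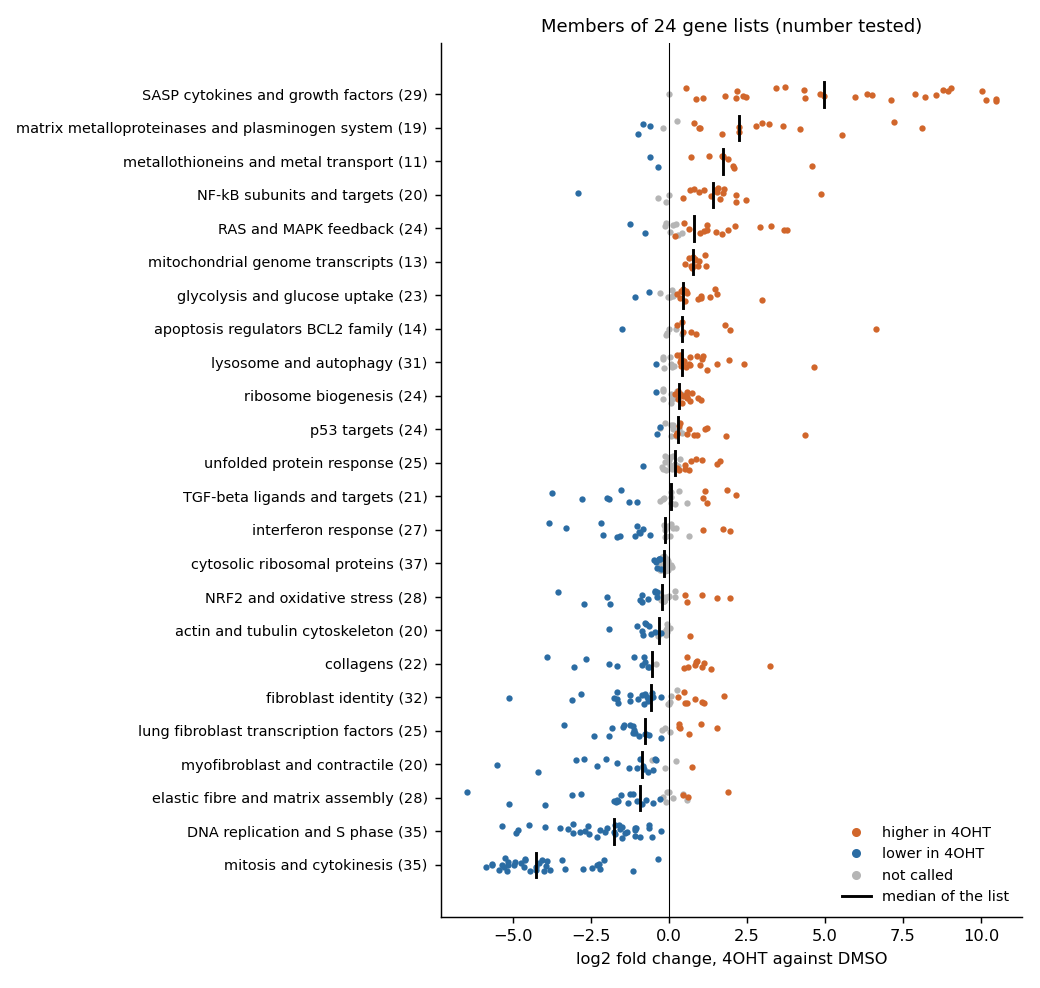
Log2 fold changes (x, 4OHT against DMSO) of the members tested of 24 gene lists (rows, number tested in brackets), with members called higher in orange, lower in blue and not called in grey, and a black bar at each list's median. The SASP list has a median of 4.98 and the mitotic list -4.25, while collagens and fibroblast identity genes lie on both sides of 0.

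The fibroblast label was checked against genes of fibroblasts and of other cell types. Of 33 fibroblast identity genes, 32 were tested, and 8 were higher, 19 lower and 5 not called, with a median of -0.58. COL1A2 was at 1713 CPM or more in each of the 11 libraries, and COL1A1, FN1 and VIM at 4492 CPM or more. The 16 epithelial markers summed to 105 to 146 CPM in DMSO and 68.4 to 85.7 CPM in 4OHT. Of these, 10 were too low to test, KRT5, KRT14 and NKX2-1 had no counts, and the keratin gene KRT19 fell from 38.1 ± 6.91 to 1.26 ± 0.567 CPM (-4.93 ± 0.25 SE, adjusted p by edgeR 7.46e-12). Of 17 leukocyte markers, 2 were higher, 2 lower and 2 not called, and 11 were too low to test, with PTPRC, the pan-leukocyte CD45, under 0.06 CPM in both means and CD3E and MS4A1 at 0, and the list summed to 42.8 to 49.1 CPM in DMSO and 34.4 to 46.4 CPM in 4OHT. CD4, 1 of the 2 lower leukocyte markers, fell from 17.5 ± 1.49 to 9.12 ± 1.84 CPM (-0.93 ± 0.13 SE, adjusted p by edgeR 8.65e-06). The 2 that were higher are not named here. The median log2 fold change of the leukocyte markers tested was 0.26, and -0.39 with a minimum of 1 CPM. Endothelial markers rose in 6 of the 8 tested of 11, and summed to 21.1 to 25.2 CPM in DMSO and 80.2 to 95.7 CPM in 4OHT. Most of that sum in 4OHT was ROBO4, an endothelial guidance receptor, which rose from 3.09 ± 0.292 to 58.7 ± 6.15 CPM (4.25 ± 0.18 SE, adjusted p by edgeR 1.04e-12). VWF, von Willebrand factor, was at 1.11 ± 0.396 CPM in DMSO and 3.76 ± 0.773 CPM in 4OHT (1.76). PECAM1 rose by log2 5.17 within siNT number 2 and 8.58 within number 4, but only to 0.7902, 0.938 and 1.11 CPM in 4OHT. CDH5 and ERG, which define endothelium, had 13 and 7 counts over the 6 libraries of 4OHT and 0 in DMSO. Whether other cell types had a part in the changes described was not tested.

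Lost fibroblast genes were led by the small proteoglycan decorin. DCN (12:91140484-91183217), which binds collagen fibrils, was at 779, 585, 441, 495 and 443 CPM in DMSO and at 14.5, 15.9 and 16.8 CPM in 4OHT, a log2 change of -5.12 ± 0.19 SE, adjusted p by edgeR 1.60e-13. Every library of 4OHT lay far under every library of DMSO. LUM, a related proteoglycan, fell from 66.3 ± 13.01 to 20.9 ± 2.11 CPM (-1.67), the fibulins FBLN1 and FBLN2 from 108 ± 56.5 to 15.3 ± 2.87 CPM (-2.83) and from 47.2 ± 9.72 to 5.45 ± 0.844 CPM (-3.11), and THY1, a surface glycoprotein of fibroblasts, from 705 ± 71.2 to 359 ± 64.8 CPM (-0.97). PDGFRA, the receptor of mesenchymal progenitors, was at 136 ± 60.8 CPM in DMSO and 134 ± 12.1 CPM in 4OHT (-0.02 ± 0.20 SE, adjusted p by edgeR 0.933). It was called higher when libraries tagged VM alone were compared (log2 0.40, adjusted p by edgeR 0.0396). VIM, the gene of the filament protein vimentin, was at 5982 ± 801 CPM in DMSO and 5963 ± 614 CPM in 4OHT (-0.0044 ± 0.09 SE, adjusted p by edgeR 0.973). FN1, fibronectin, was at 7576, 8368, 7488, 8178 and 4695 CPM in DMSO and at 4492, 7849 and 10388 CPM in 4OHT (0.07 ± 0.28 SE, adjusted p by edgeR 0.860). Its number 4 libraries of 4OHT had a mean of 9973 CPM and those of number 2 5236 CPM, and within number 2 alone FN1 was called lower (log2 -0.61, adjusted p by edgeR 0.00431). Within number 4 alone its log2 fold change was 0.59 (adjusted p by edgeR 0.265).

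**Figure D4:**
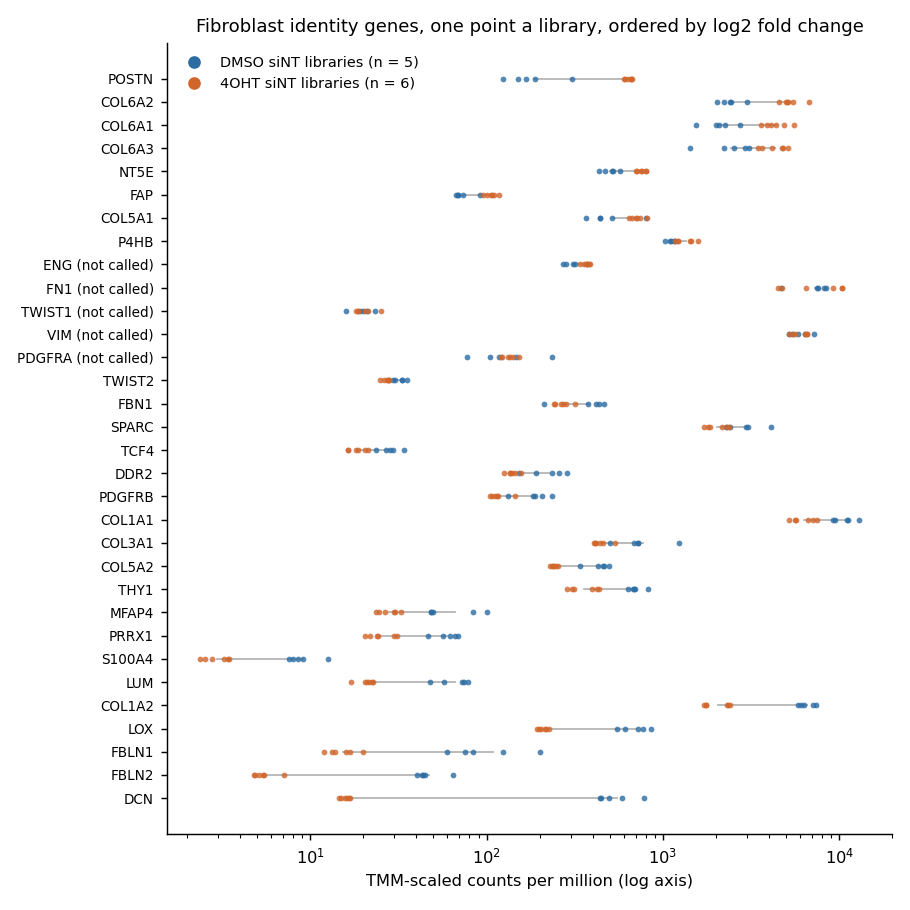
TMM-scaled CPM (x, log axis) of the 32 fibroblast identity genes tested (rows, ordered by log2 fold change), with 1 point for each DMSO (blue, n = 5) and 4OHT (orange, n = 6) library and a grey line between group means. DCN at the foot separates by a log2 of -5.12, POSTN and the 3 type VI collagen genes at the top lie higher in 4OHT, and 5 genes marked as not called overlap.

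Collagen genes split by type. Of 22 tested, 10 were higher, 11 lower and 1 not called, and their sum ran 23629.8 to 32519 CPM in DMSO and 23901 to 33321 CPM in 4OHT. Type I, the main fibrillar collagen, fell in both chains: COL1A1 was at 11262, 9399, 13005, 10988 and 9178 CPM in DMSO and at 5197, 6159 and 7517 CPM in 4OHT (-0.78 ± 0.18 SE, adjusted p by edgeR 0.00132), and COL1A2 at 7381, 5822, 6301, 7106 and 6039 CPM in DMSO and at 1713, 2029 and 2404 CPM in 4OHT (-1.68 ± 0.16 SE, adjusted p by edgeR 7.60e-08). COL1A1 was not called within siNT number 4 alone (log2 -0.55, adjusted p by edgeR 0.172). Type VI, a beaded collagen around cells, rose in all 3 chains, COL6A1 from 2114 ± 429 to 4386 ± 707 CPM (1.05), COL6A2 from 2416 ± 365 to 5299 ± 740.2 CPM (1.13) and COL6A3 from 2437 ± 649.9 to 4313 ± 677 CPM (0.82). COL7A1, the anchoring fibril collagen, had the largest log2 rise of the 22, from 52.3 ± 11.9 to 494 ± 104 CPM (3.24 ± 0.27 SE, adjusted p by edgeR 1.05e-08). COL10A1, named above and outside these 22, rose more on the log2 scale (5.90, from 0.274 to 16.5 CPM). The listed chains of basement membrane type IV, COL4A1, COL4A2 and COL4A5, also rose (log2 0.88, 0.62 and 0.90). COL3A1 fell from 775 ± 273 to 445 ± 49.01 CPM (-0.80 ± 0.22 SE, adjusted p by edgeR 0.00451), with overlapping libraries. It was not called within siNT number 4 (log2 -0.43), in libraries tagged VM (-0.54) or with the full label as a block (-0.59).

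Elastic fibre and matrix assembly genes were lower in 18 of 28 and higher in 3. ELN, the gene of elastin, was at 1.797, 3.92, 25.6, 7.92 and 6.06 CPM in DMSO and at 0.0189, 0.122 and 0.157 CPM in 4OHT (-6.47 ± 0.68 SE, adjusted p by edgeR 1.78e-07), and the fall was also called without DMSO library 2-2VM, which held the highest value (log2 -5.62, adjusted p by edgeR 7.31e-08). EFEMP1, fibulin-3, fell from 55.5 ± 12.2 to 3.57 ± 0.707 CPM (-3.96), LOX, which crosslinks collagen and elastin, from 702 ± 124 to 209 ± 13.01 CPM (-1.75), and THBS1, thrombospondin-1, from 2997 ± 750.1 to 959 ± 242 CPM (-1.64). TNC, tenascin-C, and POSTN, periostin, both of wound matrix, rose from 275 ± 71.7 to 1012 ± 253 CPM (1.88) and from 187 ± 69.6 to 638 ± 28.2 CPM (1.77).

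Contractile genes were mostly lower, 16 of 20 and 1 higher, with a median of -0.87. TAGLN, the actin-binding protein SM22, was at 959.5, 1099.5, 1787, 1073 and 1433 CPM in DMSO and at 111, 152 and 225 CPM in 4OHT (-2.97 ± 0.21 SE, adjusted p by edgeR 1.27e-09). ACTA2, alpha smooth muscle actin, fell from 281 ± 116 to 88.99 ± 8.44 CPM (-1.66 ± 0.17 SE, adjusted p by edgeR 1.77e-07) and LMOD1, an actin nucleator of smooth muscle, from 49.6 ± 16.7 to 1.101 ± 0.326 CPM (-5.49), while SMTN, smoothelin, rose from 226 ± 56.2 to 379.5 ± 12.5 CPM (0.75). Smooth muscle and pericyte markers, a list that shares members with this one, were lower in 8 of 11 and higher in 0.

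Among 25 lung fibroblast transcription factors tested, 16 were lower, 6 higher and 3 not called. OSR1 fell from 61.04 ± 4.33 to 17.2 ± 1.52 CPM (-1.83 ± 0.18 SE, adjusted p by edgeR 6.80e-08), PRRX1, a factor of limb and stromal mesenchyme, from 59.99 ± 9.02 to 25.2 ± 4.37 CPM (-1.25), TBX5, a factor of lung and heart, from 24.4 ± 0.818 to 11.1 ± 1.34 CPM (-1.14), TCF21 from 18.7 ± 3.08 to 8.56 ± 0.673 CPM (-1.13) and HOXA5 from 19.2 ± 3.85 to 6.97 ± 0.655 CPM (-1.47). FOXF1, a factor of lung mesenchyme, rose from 187 ± 30.5 to 293 ± 16.2 CPM (0.65 ± 0.09 SE, adjusted p by edgeR 7.30e-06), and TBX3 from 81.8 ± 7.88 to 167 ± 13.6 CPM (1.03 ± 0.09 SE, adjusted p by edgeR 9.46e-09). All 4 listed HOXA genes were lower, whereas of 5 listed HOXB genes 3 were higher and 2 lower, with HOXB5 at 77.6 ± 9.79 CPM in DMSO and 97.6 ± 10.4 CPM in 4OHT (0.33 ± 0.09 SE, adjusted p by edgeR 0.00377). HOXB5 was at log2 0.018 within siNT number 4, and its call was also lost in libraries tagged VM (0.22) and with the full label as a block (0.27).

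Signalling genes that shape fibroblast fate were counted next. In the TGF-beta list, 5 of 21 were higher and 7 lower, shares near the 27.0% and 27.4% of all genes. TGFBI, a matrix protein named for its induction by TGF-beta, rose from 1417 ± 238 to 3275 ± 56.2 CPM (1.21), and INHBA, the activin subunit, from 244 ± 72.5 to 1093 ± 116 CPM (2.16), whereas ID2 and ID3, targets of BMP signalling, fell from 99.5 ± 34.2 to 7.51 ± 2.15 CPM (-3.73) and from 98.3 ± 37.6 to 25.9 ± 8.87 CPM (-1.92). CCN2, a connective tissue growth factor, fell from 879.7 ± 72.5 to 430.2 ± 27.2 CPM (-1.03). The antagonists FST, of activin, and GREM1, of BMP, fell from 162 ± 29.5 to 23.4 ± 2.76 CPM (-2.80) and from 1412 ± 316 to 577 ± 144 CPM (-1.29). In the Hedgehog and WNT list, 12 of 23 were lower and 6 higher. The WNT inhibitors SFRP1 and DKK1 fell from 1408 ± 414 to 265 ± 33.7 CPM (-2.41 ± 0.25 SE, adjusted p by edgeR 1.20e-07) and from 44.2 ± 12.7 to 4.24 ± 1.08 CPM (-3.39), and the receptor FZD8 rose from 10.2 ± 4.74 to 103 ± 10.4 CPM (3.34). NOTCH genes were higher in 7 of 13, with HEY1, a NOTCH target, at 1.52 ± 0.78 CPM in DMSO and 16.9 ± 2.36 CPM in 4OHT (3.46).

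The RNA of the most abundant genes was compared per length, as counts per kb of exon scaled to the same total in each library. Of the 20 highest genes, 14 were shared by the groups. TIMP1, MT2A, MMP1, HRAS, MT-CYB and MT-ND5 entered the 20 in 4OHT, and FTH1, ACTB, LGALS1, COL1A1, VIM and ACTG1 left it. Leaving the 20 is a change of rank on a scale with a fixed total, and VIM was not called. Within siNT number 2 and number 4, FTH1 changed by log2 -0.35 and -0.30 and LGALS1 by -0.14 and -0.28. The call of ACTG1 was lost in at least 1 alternative. On this scale MMP1 rose from 655 ± 155 to 7225 ± 881 and TIMP1 from 2682 ± 509.5 to 11165 ± 2176, while ACTB fell from 5864 ± 332 to 3295 ± 103 and COL1A1 from 4570.4 ± 829.7 to 2311 ± 309. The 20 highest genes took 16.3% to 18.9% of the length-scaled total in DMSO libraries and 21.4% to 24.3% in those of 4OHT. In counts not scaled by length, the 100 highest genes took 22.9% ± 0.557 (SD, n = 5) in DMSO and 24.7% ± 1.21 (n = 6) in 4OHT, a difference of 1.86 percentage points (exact 2-sided permutation test, p = 0.0173, where 0.00216 is the smallest p possible). The libraries of the groups overlapped, and within 4OHT the 3 of number 4 were all above the 3 of number 2. Within DMSO those of number 4, at 23.2% and 23.5%, were likewise above those of number 2. The numbers of genes given next, at both cutoffs, rest on CPM that was not TMM-scaled. TMM factors were 0.999 to 1.08 in DMSO and 0.949 to 0.991 in 4OHT, so an unscaled cutoff was stricter for 4OHT. Whether the differences in these numbers hold after TMM scaling was not tested. Genes with at least 1 CPM numbered 14461 ± 287 (SD, n = 5) in DMSO and 14148 ± 248 (n = 6) in 4OHT (exact 2-sided permutation test, p = 0.0909), and those with at least 10 CPM 9695 ± 144 and 9159 ± 69.1, with no overlap (p = 0.00216 by the same test, the smallest it can give).

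**Figure D5:**
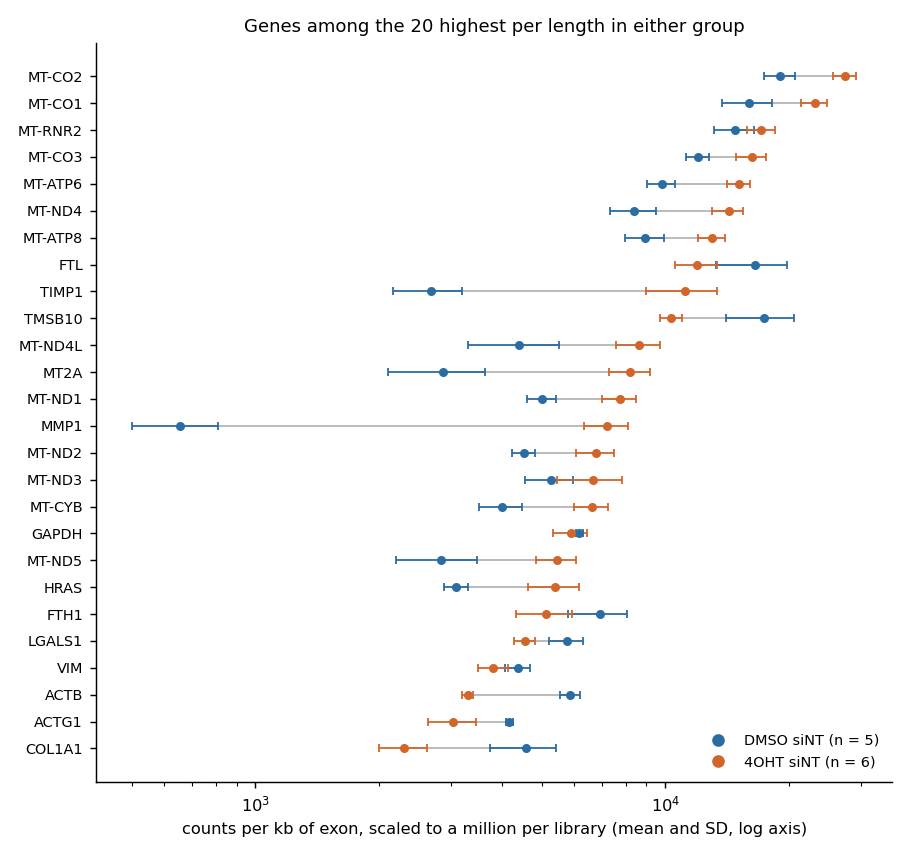
Counts per kb of exon, scaled to the same total in each library (x, log axis), for the 26 genes among the 20 highest per length in DMSO or in 4OHT (rows), as mean and SD of 5 DMSO (blue) and 6 4OHT (orange) libraries. MMP1 shows the widest gap, from 655 ± 155 to 7225 ± 881, mitochondrial genes shift to the right, and COL1A1, ACTB and TMSB10 shift to the left.

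Among called genes without overlap, the 15 largest gains in CPM, a scale that grows with a gene's length, were those of MMP1, MT-CO1, TIMP1, PLAU, CTSB, MT-ND4, COL6A2, STC1, PLAT, COL6A1, MT-CO2, MT-RNR2, HRAS, COL6A3 and TGFBI. The 15 largest losses among such genes were those of COL1A2, COL1A1, EEF1A1, ACTB, THBS1, SFRP1, GAS6, TAGLN, GREM1, TUBB, CAV1, TMSB10, ANXA5, CAVIN1 and TUBA1B. STC1, a secreted glycoprotein hormone, rose from 149.6 ± 32.4 to 2938 ± 149.6 CPM (4.30 ± 0.13 SE, adjusted p by edgeR 2.78e-14). GAS6, the ligand of TAM receptors, fell from 1315 ± 67.2 to 178 ± 11.7 CPM (-2.89 ± 0.13 SE, adjusted p by edgeR 1.47e-12), and CAV1, the main protein of caveolae, from 884 ± 176 to 151 ± 13.9 CPM (-2.55 ± 0.12 SE, adjusted p by edgeR 4.43e-12). EEF1A1, the elongation factor that brings tRNA to the ribosome, fell from 9799 ± 1642 to 6971 ± 456 CPM (-0.49). Counts of ACTB and of the tubulin genes are shared by estimate with close relatives, and in the cytoskeleton list 10 of 20 were lower and 1 higher.

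All 13 genes of the list of mitochondrial genome transcripts were higher, against 27.0% of all genes, with a median of 0.78. Their sum rose from 23578 ± 1559 to 41403 ± 3585 CPM and did not overlap between groups, at 21483 to 25222 CPM in DMSO and 37322 to 46628 CPM in 4OHT. MT-CO1, a subunit of cytochrome oxidase, was at 7158, 6809.9, 5625, 6738 and 5917 CPM in DMSO and at 9356, 10758 and 11953 CPM in 4OHT (0.74 ± 0.12 SE, adjusted p by edgeR 3.75e-05). MT-ND5 rose from 1342 ± 239.6 to 2981 ± 351 CPM (1.15). MT-RNR2, the large ribosomal RNA of the organelle, rose from 6088 ± 887 to 8084 ± 768 CPM (0.41 ± 0.15 SE, adjusted p by edgeR 0.0266), a call lost in 3 of 13 alternatives and on leaving out any of 6 libraries. MT-ND4L, whose reading frame overlaps that of MT-ND4, rose from 340.2 ± 70.98 to 775 ± 105 CPM (1.19). MT-ND3 overlapped between groups (0.52 ± 0.15 SE, adjusted p by edgeR 0.00745). It was at log2 0.04 within siNT number 4, and lost its call in libraries tagged VM (0.40) and with the full label as a block (0.44). MT-CO2 rose by log2 0.76 within siNT number 2 and 0.56 within number 4, and lost its call in at least 1 alternative. Of 25 oxidative phosphorylation genes of the nucleus, 8 were higher, 4 lower and 13 not called, with a median of 0.07. That median was -0.21 within siNT number 4 and -0.049 in libraries tagged VM.

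Lysosome and autophagy genes were higher in 23 of 31 and lower in 1, and their sum rose from 5457 ± 414 to 10672 ± 889 CPM. CTSB, a lysosomal cysteine protease, rose from 1112 ± 155 to 4250.4 ± 719.6 CPM (1.93 ± 0.13 SE, adjusted p by edgeR 7.36e-10), CTSS, a related protease, from 1.47 ± 0.9204 to 36.6 ± 5.56 CPM (4.64), and NPC1, which exports cholesterol from lysosomes, from 20.2 ± 7.81 to 107 ± 7.7 CPM (2.41). SQSTM1, the autophagy receptor p62, rose from 749 ± 132 to 1567 ± 193 CPM (1.06). GLB1, the gene of the beta-galactosidase whose activity marks senescence, rose from 81.3 ± 5.32 to 103 ± 3.39 CPM (0.35 ± 0.07 SE, adjusted p by edgeR 0.000312), a 1.27-fold change with no overlap that was not called within siNT number 4 alone (log2 0.27, adjusted p by edgeR 0.0831). Glycolysis and glucose uptake genes were higher in 15 of 23 and lower in 2. HK2, a hexokinase, rose from 28.6 ± 5.11 to 228 ± 11.4 CPM (3.00 ± 0.11 SE, adjusted p by edgeR 2.53e-13), whereas SLC2A1, the glucose transporter GLUT1, fell from 199 ± 50.2 to 127 ± 6.49 CPM (-0.65 ± 0.17 SE, adjusted p by edgeR 0.00285). The fall was not called within number 4 (-0.20) or with the full label as a block (-0.41). PDK1, which restrains pyruvate use, fell from 37.04 ± 4.06 to 17.5 ± 4.12 CPM (-1.08). GAPDH was at 3896 ± 279 CPM in DMSO and 4257 ± 487 CPM in 4OHT (0.13 ± 0.09 SE, adjusted p by edgeR 0.246).

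Metal and redox genes diverged. Metallothioneins and metal transporters were higher in 9 of 11 and lower in 2, and MT2A, whose reads its relatives can share, rose from 700.4 ± 243 to 2274 ± 301 CPM (1.70 ± 0.17 SE, adjusted p by edgeR 1.09e-07). NRF2 and oxidative stress genes were lower in 12 of 28 and higher in 5. NQO1 fell from 297 ± 25.9 to 155 ± 17.1 CPM (-0.94 ± 0.13 SE, adjusted p by edgeR 5.87e-06) and AKR1C1, one of a set of close relatives, from 24.9 ± 8.67 to 6.32 ± 0.784 CPM (-1.98), while AKR1B1, aldose reductase, rose from 198 ± 27.6 to 769 ± 53.5 CPM (1.96). FTL, the ferritin light chain, was at 3831 ± 990.1 CPM in DMSO and 3150.3 ± 443 CPM in 4OHT (-0.28 ± 0.16 SE, adjusted p by edgeR 0.139). It was called lower without DMSO library 2-2VM (log2 -0.43, adjusted p by edgeR 0.0218).

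Ribosomal proteins were mostly not called, 30 of 37, with 7 lower, a share under the 27.4% of all genes, and 0 higher, and with a median of -0.15, and RPL10 fell from 768 ± 104 to 553 ± 34 CPM (-0.47). Ribosome biogenesis factors were higher in 14 of 24 and lower in 1, with RRP12, an export factor of pre-ribosomes, rising from 49.02 ± 8.16 to 99.6 ± 8.39 CPM (1.02 ± 0.10 SE, adjusted p by edgeR 1.12e-07) while UTP20, of the same machinery, fell from 26.4 ± 4.64 to 19.7 ± 1.43 CPM (-0.42). UTP20 was not called within siNT number 4 (-0.39) or with the full label as a block (-0.37). The unfolded protein response had 10 of 25 genes higher and 1 lower, led by the pseudokinase TRIB3, from 16.3 ± 2.21 to 50.5 ± 4.59 CPM (1.63). Cholesterol and fatty acid synthesis had 8 of 29 genes (27.6%) called in each direction, near the 27.0% higher and 27.4% lower of all genes. FASN, fatty acid synthase, rose from 319 ± 40.6 to 502 ± 70.4 CPM (0.65), and LSS, lanosterol synthase, fell from 158 ± 10.6 to 91.4 ± 8.24 CPM (-0.79).

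The 15 largest falls, by the rule used for the risers, were led by SLC7A14. SLC7A14, an amino acid transporter relative of the nervous system, was at 59.3, 46.5, 44.4, 28.1 and 16.9 CPM in DMSO and at 0, 0.292 and 0.498 CPM in 4OHT (-7.28 ± 0.65 SE, adjusted p by edgeR 1.96e-08). CORIN, the protease that activates atrial natriuretic peptide, fell from 16.4 ± 6.45 to 0.258 ± 0.0777 CPM (-5.98), KCNK2, a potassium leak channel, from 19.6 ± 3.83 to 0.335 ± 0.128 CPM (-5.87), OXTR, the oxytocin receptor, from 19.7 ± 2.51 to 0.437 ± 0.177 CPM (-5.50), and CLDN11, a tight junction claudin, from 367 ± 113 to 9.002 ± 3.34 CPM (-5.35). GALNT15, a glycosyltransferase, fell from 22.8 ± 8.95 to 0.409 ± 0.124 CPM (-5.80). Lists of neuronal channels and carriers and of neuropeptides and granins had members on both sides, 4 higher and 7 lower of 16 and 6 higher and 5 lower of 15, as had antigen presentation, with 3 higher and 4 lower of 16. The peptide genes GAL and VGF rose from 2.23 ± 1.13 to 42.9 ± 11.1 CPM (4.26) and from 8.49 ± 1.43 to 83.3 ± 31.1 CPM (3.30) and the GABA receptor subunit GABRA2 from 14.6 ± 2.15 to 255 ± 14.8 CPM (4.12), while the sodium channel SCN9A fell from 123 ± 29.5 to 10.5 ± 1.34 CPM (-3.54). The rest of the 15 were the chemokine gene CXCL12, LMOD1 of contractile cells, and the cell division genes NDC80, MKI67, CDK1, PBK, TK1, KIF20A and DLGAP5.

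The effect of 4OHT was also compared between the siNT labels of number 2 and 4, since several genes split by number within 4OHT. A term for the difference was called for 311 of 20607 genes tested, or 1.51%, of which 106 had a higher value with number 4 and 205 a lower one. At an unadjusted p under 0.05 there were 5797. Single libraries moved this count: it was 0 without 4OHT library 2-2VM, 2-3VM, 4-1VM or 4-2VM (edgeR, 4215 to 4540 at an unadjusted p under 0.05), and 1, 2 and 6 without DMSO library 4-3VM, 2-1V and 2-2V. It was 962 without 4OHT 4-3VM, 1639 without DMSO 2-2VM, 2943 without 4OHT 2-1VM and 3746 without DMSO 4-2VM. Among genes named here, it called 3: ENO2, the neuronal enolase, changed by 0.93 with number 2 and 1.86 with number 4, a difference of 0.94, with SE 0.14 and an adjusted p by edgeR of 0.0427, SLC2A1 by -0.97 with number 2 and -0.20 with number 4, a difference of 0.78, with SE 0.12 and an adjusted p by edgeR of 0.0427, and GABARAPL1, an autophagy protein, by -0.67 with number 2 and -0.11 with number 4, a difference of 0.56, with SE 0.12 and an adjusted p by edgeR of 0.0475. Number and the libraries that carry it cannot be told apart.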

How the data were processed

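RNA was selected by poly(A), made into strand-specific libraries with the NEBNext Ultra II Directional kit and sequenced in pairs on an Illumina NextSeq instrument. The authors trimmed reads with Cutadapt 4.7, aligned them to GRCh38 with HISAT2 2.2.1, keeping multiple alignments, and counted genes and repeats with TElocal in reverse-stranded multi mode. The deposited tables hold these expected counts, 1 per gene or repeat locus and library, written as whole numbers. Reads with several alignments were shared by estimate, so close relatives are uncertain. The study names Ensembl release 100, and 62700 of 62754 gene IDs were found in GENCODE 44, from which symbols, coordinates and exon lengths were taken.

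All 17 libraries, 6 of them with an siRNA against SMARCA4 and not described here, were fitted together for a shared estimate of spread. Genes and repeat subfamilies passed edgeR's filterByExpr and were scaled by TMM, and a quasi-likelihood model (edgeR 4.0.16, R 4.3.3) tested 4OHT against DMSO in siNT, with Benjamini-Hochberg adjustment over genes. The script was tested on simulated counts. Values of 1 number per library were compared by an exact permutation test over 462 splits (numpy 2.4.6), and the counting interval (scipy 1.17.1) has a confidence of 0.95. DESeq2 1.42.0, other filters, subsets and covariates, and leaving out each library were alternatives.

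Genes named are the 15 largest rises and falls in log2 fold change among called genes with a symbol, no overlap and at least 10 CPM in the higher group, the 15 largest by CPM, the 20 highest per kb of exon in each group, the extreme and uncalled members of 42 gene lists, and cell type markers. The members and lists were chosen with earlier results of these data known. CXCL6, IL11, COL4A1, COL4A2 and COL4A5 were added after their values were seen. The promoter of MMP1 is not shown, and some results are not reported here.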

Additional observations from a re-analysis of the deposited data

Results flagged for a closer look

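A library was singled out where its gap to the nearest other library of its group passed Dixon's 95% limit. This held in 31 of 412 groups of values checked (7.52%), where chance gives about 1 in 20. Of the 31, 12 fell on 4OHT library 4-2VM. It was the highest for IL1B at 1269.8 CPM (others 694 to 885), CXCL1 at 352 (139.6 to 208), CXCL3 at 149 (77.2 to 97.0), CSF2 at 71.4 (27.9 to 39.0), IL6 at 79.96 (39.9 to 52.4), IL11 at 219.5 (126.8 to 147), BMP2 at 589 (425 to 477) and PTGS2 at 288 (165 to 207). It was also the highest for PLAT at 3242 CPM (2647 to 2765), ETV4 at 58.4 (45.5 to 49.9), FBLN2 at 7.08 (4.79 to 5.47) and IFIT2 at 1.05 (0.518 to 0.658). Leaving it out kept the call of each of these genes. In other 4OHT libraries, CCNB2 was at 1.73 CPM in 2-2VM (0.890 to 1.19), HMGA2 at 838 (777 to 800) and SMTN at 355 (380 to 390) in 4-3VM, ROBO4 at 46.9 in 2-3VM (57.4 to 63.3), and LGALS1 at 1244 in 2-1VM (1458 to 1580.1).

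In DMSO, library 2-1V stood apart for TNFSF15 at 1.31 CPM (others 0.0503 to 0.368), COL10A1 at 0.401 (0.218 to 0.259), FOXF1 at 240.1 (166 to 179) and CD4 at 20.05 (16.3 to 17.1), and 2-2V for JUN at 156 (170.1 to 171). Library 2-2VM was the highest for FBLN2 at 64.3 CPM (40.1 to 44.7), ELN at 25.6 (1.80 to 7.92), EFEMP1 at 76.7 (47.6 to 54.4) and ACTA2 at 489 (217 to 247). Library 4-3VM was the lowest for TNC at 149 CPM (289 to 316), FN1 at 4695 (7488 to 8368) and MT-ND4L at 218 (339 to 383), and the highest for NQO1 at 342 (279.7 to 295) and TMSB10 at 3149 (1708 to 2007).

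The effect of 4OHT differed between siNT numbers for 311 genes by edgeR's test of the difference. Of the genes named in the text these were ENO2, whose log2 fold change was larger by 0.94 with number 4, SLC2A1, by 0.78, and GABARAPL1, by 0.56.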

How the results depend on the processing

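Of 194 genes called and named in the text, 178 kept call and direction in all 24 alternatives, 0 changed direction, and 16 lost the call in at least 1: HBEGF, ACTG1, MT-CO2, DNMT1, ECT2, HMGA2, MACROH2A1, COL1A1, COL3A1, HOXB5, MT-ND3, MT-RNR2, SLC2A1, GLB1, GABARAPL1 and UTP20. The number of called genes ran from 7929 with the full label as a replicate block to 11470 with DESeq2, was 8555 within siNT number 4, and without 1 library from 9978 to 10638, against 10600. Calls higher in 4OHT made up 46.3% to 50.5% of all calls. The same-label pairs of DMSO and 4OHT had correlations of their deviations of -0.41, -0.31 and 0.22. Pairs that shared only the replicate number ran from -0.29 to 0.51. So few and mixed values cannot tell whether the tags pair libraries. With the number alone as a replicate block 10521 genes were called. Medians of 11 lists changed sign in at least 1 alternative.

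The count of genes whose 4OHT effect differed between siNT numbers, 311, was 569 with a minimum of 1 CPM, 127 with DESeq2 size factors, 21 in VM libraries and 0 with the replicate block by number (edgeR, 4200 at an unadjusted p under 0.05), and 0 to 3746 without 1 library; an arm left with a single library was assumed to vary like the others. The share of the 100 highest genes differed by 1.11 points within number 2 and 2.45 within number 4, where exact permutation cannot go below p = 0.1, and by 1.39 for the 1000 highest (p = 0.0649, exact permutation). The difference in genes with at least 1 CPM, not TMM-scaled, was -600.7 within number 2 (p = 0.1, exact permutation, the smallest possible), 72.8 within number 4 (p = 0.7) and -416 to -241 without 1 library, called without DMSO 4-3VM (p = 0.0381), and at 10 CPM it was -535.

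Of the 9 named genes that were not called, 4 changed sign. CCL2 was at log2 -0.0116 with no filter, -0.0053 with at least 1 CPM, -0.17 in number 2 and -0.0759 to 0.19 without 1 library, and was called higher at 0.31 in VM libraries, 0.52 with V or VM as a covariate and 0.40 with the replicate block by full label. VIM was at 0.0026 with V or VM as a covariate and -0.082 to 0.068 without 1 library. FN1 was at -0.61 in number 2, 0.59 in number 4, -0.059 with number as a covariate and -0.0556 to 0.17 without 1 library. PDGFRA was at 0.50 in number 4, 0.40 in VM libraries, 0.23 with V or VM and 0.034 with number as a covariate, 0.38 with the replicate block by full label, and -0.17 to 0.24 without 1 library. The cause was not tested.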
